A study of Mus musculus with 44 samples.

Results

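The genes described here are 31 genes of fatty acid oxidation and targets of the nuclear receptor PPAR alpha, out of 38202 genes counted in liver and skeletal muscle of mice. They were chosen as a list of known mitochondrial and peroxisomal beta-oxidation enzymes and PPAR alpha targets, and all 31 were found by their Ensembl identifiers in the tables of counts and of RPKM, read counts scaled by gene length and library size. The animals were male C57BL/6N littermates, 11 wild type (WT) mice and 11 Slc16a13 knockout (KO) mice, whose constitutive CRISPR/Cas9 deletion takes the promoter and first 3 exons of a plasma membrane lactate transporter from every cell. All of them had received a high-fat diet (HFD) for 15 weeks, were 20 weeks old and, as the study's methods state for animals in general, were killed after an overnight fast. Liver and muscle came from the same animals, which gave 4 groups of 11 libraries. The samples hold no group on normal chow and no fed group, so levels on HFD after fasting are all that is described.

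Beta-oxidation shortens fatty acids by removing acetyl-CoA in repeated rounds. Long-chain fatty acids are activated to CoA esters by Acsl1, carried into mitochondria as carnitine esters by Cpt1, Slc25a20 and Cpt2, and shortened by an acyl-CoA dehydrogenase, a hydratase, a hydroxyacyl-CoA dehydrogenase and a thiolase, while the electron transfer flavoprotein passes the electrons on. Peroxisomes run a parallel pathway for very long and branched chains. In liver, PPAR alpha binds fatty acids and switches these genes on during fasting; in muscle, oxidation is highest in slow and fast oxidative fibres.

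Total counts per library lay between 20150712 and 35218243, so a count of 3, taken as the floor of detection, was far below every member in liver. Slc16a13 itself had 99 to 302 reads in WT livers and 0 to 8 in KO livers, but 4 to 22 in WT muscles and 11 to 40 in the muscles labelled KO. Since that goes against the label, these muscles are referred to as labelled KO. Counts were made by gene, not by exon, so reads from outside the deleted part cannot be told apart from the rest. In 4 KO livers (mice 532, 583, 602 and 611) the counts fell with gene length: the slope of log2 counts scaled by library size (CPM), relative to the mean liver, on log2 gene length was −0.53 to −0.08, against 0.04 to 0.10 in WT livers and 0.04 to 0.11 in the other 7 KO livers. The liver genotype comparison of the members is therefore given with and without these 4. Both tissues carried their defining markers: the summed level of 6 hepatocyte markers was 81100 to 137500 CPM in liver and 4.35 to 57.0 CPM in muscle, and that of 8 myofibre markers 104000 to 161100 CPM in muscle and at most 47.8 CPM in liver, where 1 of the 8 was at 0 in all KO livers. In these bulk samples, fewer cells of a type and less RNA per cell cannot be told apart.

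The comparison of liver with muscle asked where each step of the pathway was transcribed. In WT mice 26 of the 31 members were higher in liver and 3 higher in muscle, and in KO mice the counts were again 26 and 3 (edgeR's quasi-likelihood test, Benjamini-Hochberg adjustment over all genes, threshold 0.05). The background is wide, since 91% of the 13907 genes tested in WT mice and 86.7% of the 13981 tested in KO mice passed, with 45.5% of the WT genes called in each direction and 43.9% of the KO genes called higher and 42.8% lower in liver. The median log2 difference of the members, liver over muscle, was 1.79 in WT and 2.01 in KO mice, against 0.003 and 0.017 over all genes tested. On the RPKM scale 24 members had every liver, WT or KO, above every muscle, 3 had every liver below every muscle, and 4 overlapped, namely Acadvl, Acadl, Hadha and Hadhb; of the 14739 genes tested for the interaction, 24.1% had every liver above and 28.5% every liver below every muscle. With both tissues of a mouse treated as a pair, the calls were again 26 and 3 in either genotype.

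**Figure D1:**
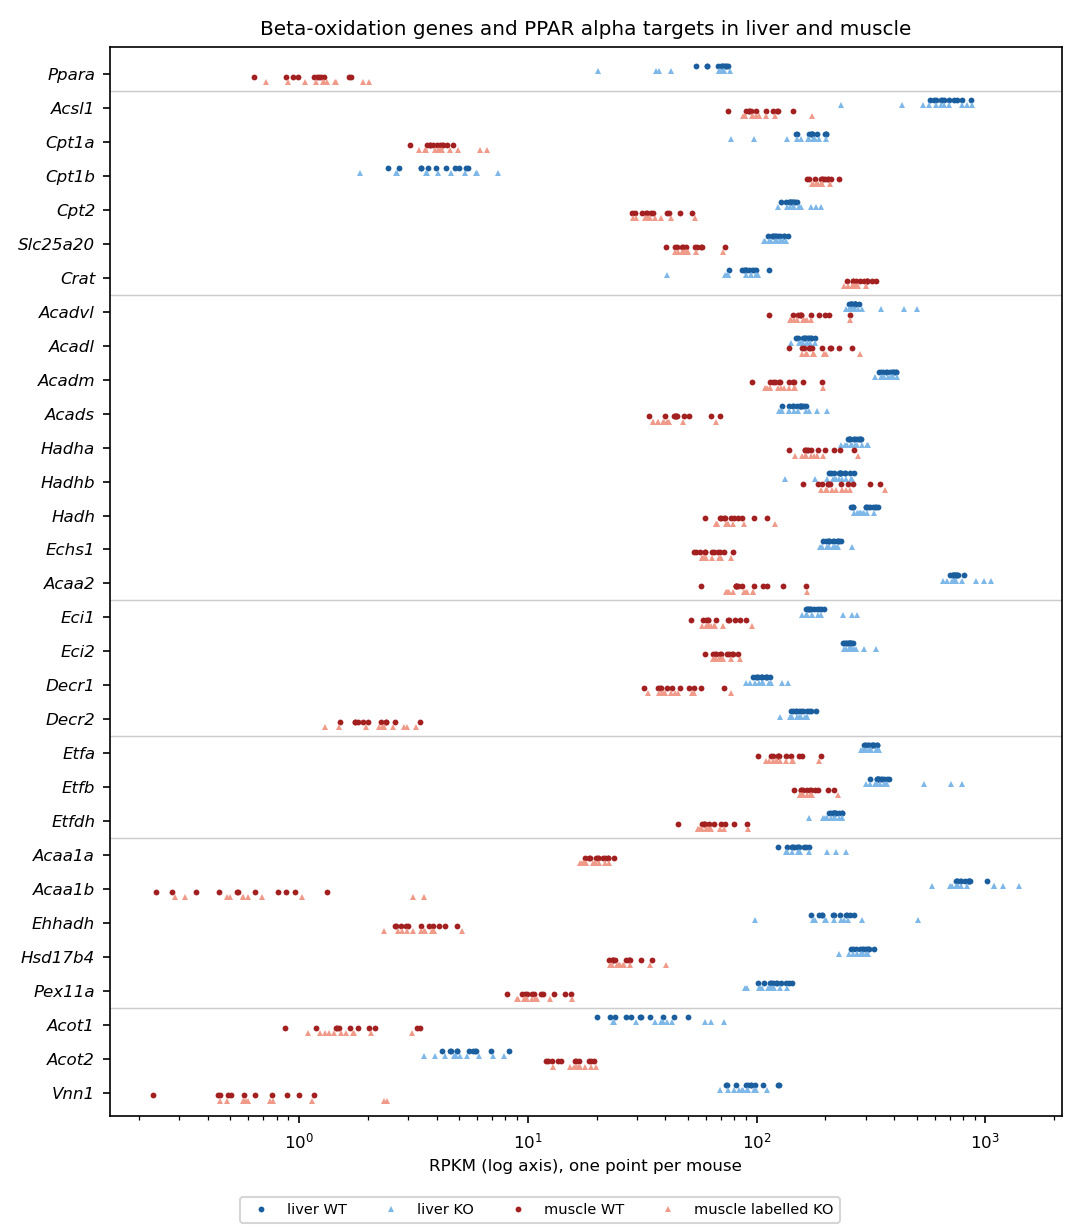
RPKM of the 31 members (rows, grouped by role with grey lines between roles) on a log axis, one point per mouse, for liver WT, liver KO, muscle WT and muscle labelled KO (11 mice each). The points of liver and muscle separate for most rows, Cpt1b, Crat and Acot2 lie higher in muscle, and Acadl, Hadha, Hadhb and Acadvl overlap between the tissues.

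Ppara, which encodes the PPAR alpha receptor itself, was 54.5 RPKM in the lowest WT liver, 70.7 at the median and 74.8 in the highest. In WT muscle it ran from 0.640 to 1.69 RPKM with a median of 1.196. The receptor transcript was thus far higher in every liver than in any muscle, by a log2 difference of 5.70 (SE 0.12, adjusted p = 7.12e-24).

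The entry steps used a different gene in each tissue. Cpt1a and Cpt1b encode the liver and muscle forms of the outer membrane carnitine palmitoyltransferase, the step that malonyl-CoA inhibits. Cpt1a lay between 149 and 202 RPKM in WT livers (median 174) and between 3.07 and 4.71 RPKM in WT muscles (median 4.03). Cpt1b went the other way, with 2.45 to 5.50 RPKM in WT livers (median 3.995) and 166 to 230 RPKM in WT muscles (median 195). The ranges of the tissues did not overlap for either gene. The log2 differences, liver over muscle, were 5.51 for Cpt1a (SE 0.07, adjusted p = 9.39e-29) and −5.52 for Cpt1b (SE 0.11, adjusted p = 1.05e-24). Of the summed RPKM of both genes, Cpt1b made up 1.54% to 2.91% in WT livers and 97.6% to 98.5% in WT muscles. In the annotation used here (GENCODE M21), 76.5% of the 85-base words of Cpt1b, the length of 1 read, also lie in the overlapping same-strand gene Gm44502, which is not a row of the tables.

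The other carriers split less sharply. Acsl1, the long-chain acyl-CoA synthetase, ranked below only Acaa1b and Acaa2 in liver (median 658 RPKM in WT) and 99.4 RPKM in WT muscle. Cpt2, which returns the acyl group to CoA inside the mitochondrion, and Slc25a20, the carnitine carrier of the inner membrane, were 142 and 122 RPKM in WT liver and 34.7 and 49.4 RPKM in WT muscle. Crat, which moves acetyl and other short groups between CoA and carnitine, was the top member in muscle. It ran from 249 to 331 RPKM in WT muscles (median 294) and from 75.9 to 113 RPKM in WT livers (median 89.9), a log2 difference of −1.69 (SE 0.05, adjusted p = 1.03e-20).

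Of the 9 genes of the mitochondrial spiral itself, 7 were higher in liver and 2, Acadl and Hadhb, did not pass the test in either genotype. Acadl, the long-chain dehydrogenase, was 149 to 180 RPKM in WT livers and 139 to 261 RPKM in WT muscles, so that the muscle range enclosed the liver range. Hadhb, the thiolase subunit of the mitochondrial trifunctional protein, was 207 to 266 RPKM in WT livers and 159 to 345 RPKM in WT muscles. The log2 differences were −0.14 (95% interval −0.29 to 0.01) for Acadl and 0.03 (−0.15 to 0.20) for Hadhb. Acadvl, the membrane-bound very long-chain dehydrogenase, and Hadha, the hydratase and dehydrogenase subunit of the trifunctional protein, were higher in liver by log2 differences of 0.69 and 0.57. When the dependence of each library on gene length was removed, Acadl became lower in liver in WT mice (−0.70, adjusted p = 7.54e-10), Hadhb became lower too (−0.30, adjusted p = 0.00306) and Hadha was no longer called (0.03, adjusted p = 0.691). In KO mice the same correction gave −0.65 for Acadl (adjusted p = 7.67e-09), −0.39 for Hadhb (adjusted p = 0.00648) and 0.15 for Hadha (adjusted p = 0.0773). Acadl was also called lower in liver in WT mice with at least 10 counts in every library (adjusted p = 0.0438), in KO mice with library size alone (adjusted p = 0.042), and in both with limma on RPKM (adjusted p = 0.0152 to 0.0394), by log2 differences of −0.16 to −0.21.

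The enzymes for medium and short chains leaned further to liver. Acadm and Acads, the medium- and short-chain dehydrogenases, differed by 1.53 and 1.69 on the log2 scale, Echs1, the short-chain hydratase, by 1.76 and Hadh, the short-chain hydroxyacyl dehydrogenase, by 1.955. Acaa2, the mitochondrial thiolase for these chains, was second among the members in liver with a WT median of 739 RPKM and stood at 86.5 RPKM in WT muscle, a difference of 2.95. Within the spiral the tissue difference thus ran from no call for Acadl and Hadhb to 7.75-fold for Acaa2.

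The accessory enzymes for unsaturated chains and the electron transfer chain were all higher in liver. Eci1 and Eci2, which move double bonds into place, differed by 1.39 and 1.85 and Decr1, the mitochondrial dienoyl-CoA reductase, by 1.21. Decr2, its peroxisomal counterpart, was 141 to 182 RPKM in WT livers and 1.52 to 3.39 RPKM in WT muscles, a difference of 6.37 (SE 0.08, adjusted p = 5.03e-29). Etfa and Etfb, the subunits of the electron transfer flavoprotein, and Etfdh, which hands its electrons to ubiquinone, differed by 1.27, 1.02 and 1.79. The peroxisomal reductase thus had a far wider tissue difference than the mitochondrial one.

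The thiolases, bifunctional enzymes and Pex11a of peroxisomes, 5 genes, were all higher in liver in both genotypes, with a median difference of 3.54 in WT mice. Acaa1b, a peroxisomal thiolase, was the member with the highest level in liver (742 to 1013 RPKM in WT, median 813) and the lowest in muscle (0.237 to 1.34 RPKM, median 0.543, from 9 to 62 reads). The difference of 10.48 (SE 0.19, adjusted p = 2.05e-25) was the widest of the 31. Its paralogue Acaa1a, also a thiolase, was 150 RPKM in WT liver and 20.4 RPKM in WT muscle, a difference of 2.84. Acaa1b therefore made up 84.5% of the summed RPKM of both at the median of WT livers and 2.62% at the median of WT muscles. Ehhadh, the L-bifunctional enzyme and a classical PPAR alpha target, was 173 to 266 RPKM in WT livers and 2.63 to 4.92 RPKM in WT muscles. Its difference was 6.02 (SE 0.12, adjusted p = 1.19e-24). Hsd17b4, the D-bifunctional enzyme, and Pex11a, which takes part in peroxisome division, differed by 3.52 and 3.54.

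The thioesterases and Vnn1 completed the list. Acot1 and Acot2 release free fatty acids from acyl-CoA in the cytosol and the mitochondrion. Acot1 was 20.01 to 50.004 RPKM in WT livers and 0.872 to 3.396 RPKM in WT muscles (difference 4.11), whereas Acot2 was 4.23 to 8.28 RPKM in WT livers and 12.01 to 19.5 RPKM in WT muscles. The difference of Acot2 was −1.44 (SE 0.10, adjusted p = 9.19e-13). Acot2 made up 8.37% to 23.1% of the summed RPKM of the pair in WT livers and 85.2% to 93.2% in WT muscles, so these neighbours on chromosome 12 were used in opposite tissues. Vnn1, a pantetheinase and PPAR alpha target, was 73.7 to 126 RPKM in WT livers and 0.231 to 1.16 RPKM in WT muscles, a difference of 7.22 (SE 0.18, adjusted p = 1.23e-22). Reads can be shared within both paralogue pairs: 22.4% of the 85-base words of Acaa1b also occur in Acaa1a, 19.1% of those of Acot2 in Acot1, and 10.4% of those of Acot1 in Acot2. Further words of Acot1 occur in Acot3 and Acot5, and Acot3 had 299 to 1691 reads in liver. For Etfb 38.1% lie in Gm45233, which is no row of the tables, and for Hadhb 15.8% in other loci led by the pseudogene Gm13910 (33 to 86 reads in liver, 35 to 144 in muscle). The names of both tables refer to unique reads, and how shared reads were treated is not described further in the sources used here.

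The 250 bases before the annotated start (RefSeq, GRCm38.p6) are shown for the members that the tissue comparison turns on. RefSeq start regions were matched for 25 of the 31 members; Cpt1b, Acaa2, Hsd17b4, Decr1, Vnn1 and Crat had none. Hadha and Hadhb are transcribed away from each other on chromosome 5 with 272 bases between their starts, so 228 bases are common to both windows, and the window of Hadhb is given for both. The ratio of Hadhb to Hadha in RPKM was 0.821 to 0.937 in WT livers and 1.14 to 1.35 in WT muscles. The pairs Acot1 and Acot2 and Acaa1a and Acaa1b are shown because their tissue patterns part. Capitals mark the nuclear receptor hexamer AGGTCA on either strand.

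Hadhb, chr5:30155003-30155252, plus strand: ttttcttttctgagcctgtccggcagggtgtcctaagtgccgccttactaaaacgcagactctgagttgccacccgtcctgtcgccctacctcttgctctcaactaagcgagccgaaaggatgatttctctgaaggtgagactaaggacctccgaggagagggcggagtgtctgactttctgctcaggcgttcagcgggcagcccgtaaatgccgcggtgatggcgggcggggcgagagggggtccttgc
Cpt1a, chr19:3323051-3323300, plus strand: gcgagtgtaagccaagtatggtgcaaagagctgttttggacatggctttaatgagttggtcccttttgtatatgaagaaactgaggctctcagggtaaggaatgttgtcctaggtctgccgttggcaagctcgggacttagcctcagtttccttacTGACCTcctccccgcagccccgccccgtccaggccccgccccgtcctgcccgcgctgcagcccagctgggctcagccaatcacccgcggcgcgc
Acot1, chr12:84009252-84009501, plus strand: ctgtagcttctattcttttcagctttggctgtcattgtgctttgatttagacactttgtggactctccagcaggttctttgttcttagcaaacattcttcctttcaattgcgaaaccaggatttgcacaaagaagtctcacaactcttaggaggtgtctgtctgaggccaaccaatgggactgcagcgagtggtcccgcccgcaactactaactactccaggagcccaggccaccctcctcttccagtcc
Acot2, chr12:83987611-83987860, plus strand: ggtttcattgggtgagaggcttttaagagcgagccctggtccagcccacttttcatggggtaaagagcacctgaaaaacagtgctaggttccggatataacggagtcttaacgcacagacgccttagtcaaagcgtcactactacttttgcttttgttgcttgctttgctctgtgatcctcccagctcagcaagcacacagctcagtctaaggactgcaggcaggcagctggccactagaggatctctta
Acaa1a, chr9:119341044-119341293, plus strand: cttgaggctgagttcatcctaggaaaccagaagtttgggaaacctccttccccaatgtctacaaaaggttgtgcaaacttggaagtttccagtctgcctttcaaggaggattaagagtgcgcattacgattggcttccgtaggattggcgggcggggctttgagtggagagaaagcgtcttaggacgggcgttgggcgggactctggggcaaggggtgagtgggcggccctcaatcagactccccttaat
Acaa1b, chr9:119157094-119157343, minus strand: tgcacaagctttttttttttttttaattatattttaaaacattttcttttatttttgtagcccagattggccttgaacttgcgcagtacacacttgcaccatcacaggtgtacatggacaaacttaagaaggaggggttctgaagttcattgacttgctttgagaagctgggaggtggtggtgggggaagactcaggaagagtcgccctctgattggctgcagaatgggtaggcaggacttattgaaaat

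Aligned end to end, the windows of Acot1 and Acot2 were 47.7% identical and those of Acaa1a and Acaa1b 48.1%, while the unrelated windows of Cpt1a and Hadhb, aligned the same way, were 47.8% identical. The hexamer AGGTCA, searched on both strands, occurred in the windows of 4 of the 25 members, Acadm, Acadvl, Cpt1a and Echs1, and in 4607 of all 32851 start regions of this length. In Cpt1a it began 94 bases before the start. A direct repeat of AGGNCA with 1 base between its copies, also searched on both strands and overlapping the hexamer where N is T, had no match among the members and was found in 0.338% of all start regions. The letters say nothing about more distant sites or about binding.

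The liver genotype comparison asked whether the loss of Slc16a13 moved these genes. None of the 31 was called (background 0.0231% of 13005 genes, namely 3 genes). With an unadjusted p below 0.05 there were 7, or 22.6% of the members, against 12.9% of all genes tested. DESeq2 also called none and had 7 at that unadjusted level (15.1% of all genes). At least 10 counts in every library gave 7 (14%) and no filter 5 (11.2%). limma-voom and library size alone had 2 each (12.7% and 10.8%). Gene length removed (9.34%) and RPKM with a pseudocount of 0.1 or 1 (15.7% and 15.5%) had 1 each. Of the 31 log2 fold changes, KO over WT, 20 were above 0 (48.9% of all genes were), with a median of 0.05. With limma-voom and with gene length removed 20 were again above 0. With library size alone 14 were above 0 (37.2% of all genes), with a median of −0.02. With RPKM and either pseudocount 13 were above 0 (36% and 36.6% of all genes), with a median of −0.01. No member had separate WT and KO ranges in RPKM, as was the case for all but 1 of the genes tested (background 0.00769% of 13005 genes).

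The 7 were Etfb, Eci2, Acot1, Acadvl, Acaa1a, Cpt2 and Eci1, all with values above 0 and all with adjusted p = 0.382 by edgeR. Etfb was 314 to 378 RPKM in WT livers (median 341) and 301 to 788 RPKM in KO livers (median 360), a log2 fold change of 0.39 (SE 0.165). The 3 highest KO values, 788, 710 and 539 RPKM, came from mice 532, 602 and 583, and the other 8 KO livers lay at 301 to 370 RPKM. Acot1 was 20.01 to 50.004 RPKM in WT livers and 23.5 to 72.4 RPKM in KO livers, with medians of 30.9 and 39.04 RPKM and a log2 fold change of 0.49 (SE 0.21). Its highest KO values came from mice 602 (72.4 RPKM), 583 (63.5 RPKM) and 598 (59.7 RPKM). Eci2 differed by 0.18 (SE 0.08), Acadvl by 0.17 (SE 0.08), Acaa1a by 0.27 (SE 0.13), Cpt2 by 0.14 (SE 0.07) and Eci1 by 0.22 (SE 0.11). At the other end, Ppara was 54.5 to 74.8 RPKM in WT livers and 20.2 to 76.5 RPKM in KO livers, with a log2 fold change of −0.36 (95% interval −0.90 to 0.19).

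Without the 4 KO livers of low length slope, none of the 31 members had an unadjusted p below 0.05 (background 2.96% of 13210 genes). The median log2 fold change was 0.00, with 15 values above 0. Etfb then stood at −0.02 (95% interval −0.13 to 0.09), Ppara at 0.07 (−0.07 to 0.20), Acot1 at 0.27 (−0.13 to 0.67) and Ehhadh at 0.28 (−0.05 to 0.62). Eci2 stood at 0.04, Acadvl at 0.01, Acaa1a at 0.01, Cpt2 at 0.05 and Eci1 at −0.025. The mean of the remaining 7 KO livers was within 0.1 log2 CPM of the WT mean for 28 of the 31 members, and the exceptions were Acot1 (0.26), Ehhadh (0.21) and Cpt1b (0.18).

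**Figure D2:**
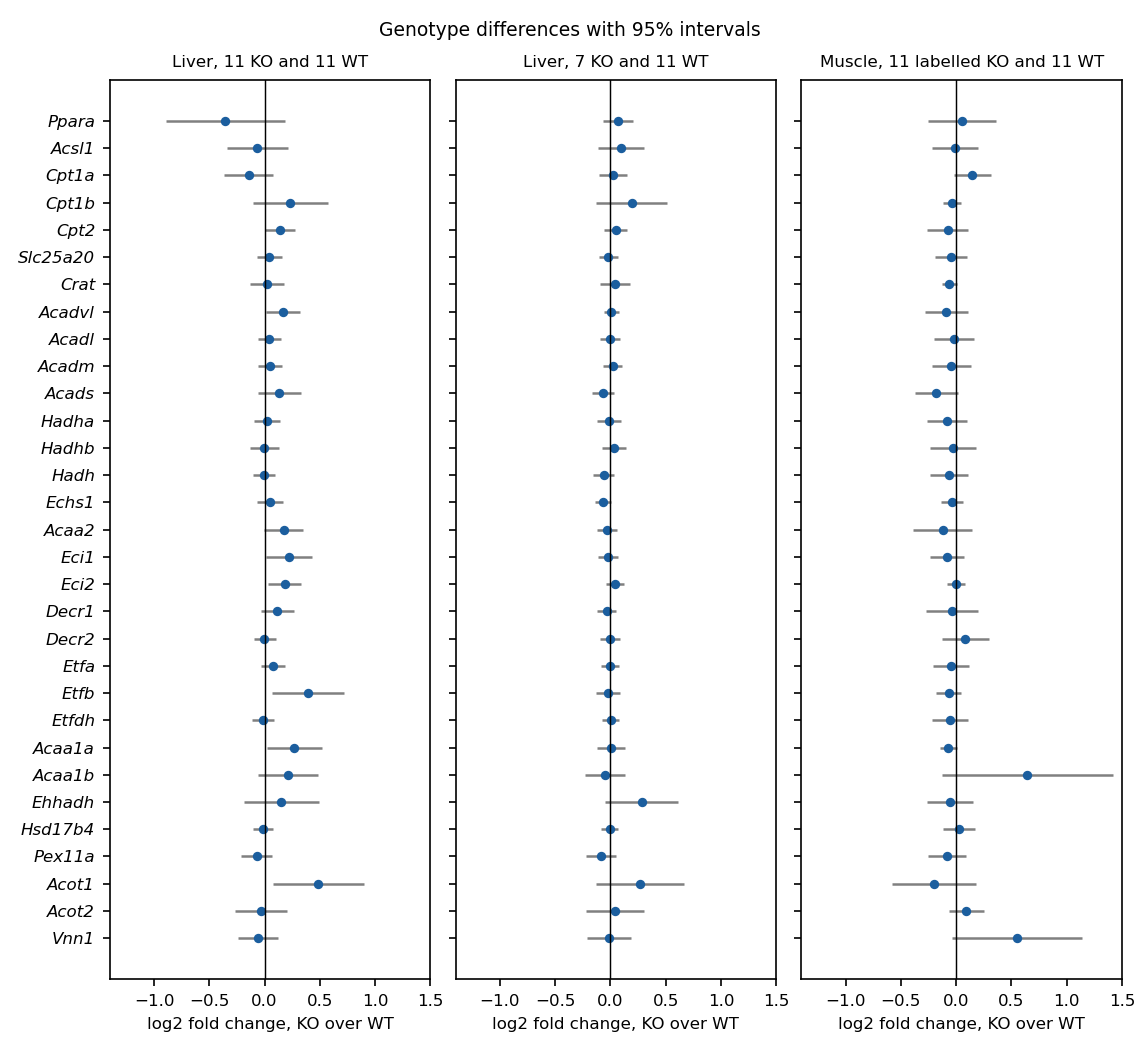
Log2 fold change, KO over WT, of each member with its 95% interval, for all livers, for livers without the 4 of low length slope, and for muscle. None was called in any panel; the intervals of Etfb, Acot1 and Ppara in the left panel shrink or move towards 0 in the middle one, and Acaa1b and Vnn1 have the widest intervals in muscle.

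In the 4 livers of low length slope, the members parted by length. These livers were picked because counts fell with length over all genes, so such a parting is built into the choice and is given as a description. Of the 15 members with an implied length under 2000 bases, 14 had a higher mean log2 CPM there than in WT livers, with a median difference of 0.39. Of the 16 longer ones 6 were higher, with a median difference of −0.05. Etfb (862 bases) stood 0.85 above the WT mean and Cpt1a (4300 bases), Acsl1 (3608 bases) and Ppara (2601 bases) stood 0.54, 0.46 and 1.89 below it. Hadhb, the shortest by implied length (825 bases), was the exception among the short ones at −0.08. Hsd17b4 (2656 bases), Decr1 (2946 bases) and Ehhadh (3018 bases), all longer than Ppara, differed from the WT mean by −0.03, 0.33 and −0.18. The 6 longer members that were higher also included Acadvl (2040 bases) at 0.39 and Cpt2 (2069 bases) at 0.28. With gene length removed, the log2 fold change of Ppara over all livers was −0.34 (SE 0.265), against −0.36 without that correction. As a description over the 31 members, which share these libraries, Pearson's r of the difference with log2 length was −0.55 in the 4 livers and 0.20 in the other 7.

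The 4 livers were not alike. Mouse 583 had 22 members above the WT range and 1 below, mouse 602 had 19 above and 3 below, mouse 532 had 10 above and 13 below, and mouse 611 had 2 above and 4 below. The share of all genes outside the WT range was not computed for these livers. A shift of the whole library therefore cannot be told apart from one of the members. Ppara was the member furthest below the WT mean in each of them, by 3.32, 2.06, 1.19 and 0.98 log2 CPM in mice 532, 602, 583 and 611. In RPKM the values were 20.2, 36.5, 42.3 and 37.5, against 54.5 to 74.8 in WT livers, so these 4 lay below every WT liver on both scales. Dividing count by RPKM gave a length over 1% away from the gene's median in 45.8% of all well measured values, so the scales need not give the same size of difference. The sum of 5 erythroid markers was 390 to 574 CPM in these 4 livers, 222 to 332 CPM in WT livers and 202 to 291 CPM in the other KO livers, with no marker at 0 throughout. The sum of 5 macrophage markers was 345 to 675 CPM in the 4 livers, above the 261 to 333 CPM of WT livers, and 229 to 367 CPM in the other KO livers. The sum of 4 endothelial markers was 82.3 to 120 CPM in the 4 livers, below the WT range of 111 to 140 CPM in mice 532, 583 and 602, and 113 to 149 CPM in the other KO livers. The sum of 5 fibroblast or stellate cell markers was 146 to 235 CPM in the 4 livers and 170 to 299 CPM in the other KO livers. In mice 583 and 602 it lay below the WT range of 171 to 362 CPM. The median implied length was 556 bases for the erythroid, 1756 for the macrophage, 4031 for the endothelial and 5351 for the fibroblast markers. The part of these cells in the members' levels, and of gene length in the marker sums, was not tested.

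Among the 7 other KO livers, mouse 598 had the most members above the WT range. It had 14 members above the WT range and 0 below, with Ehhadh at 506 RPKM against at most 266 RPKM in WT livers. Its Cyp4a14, a fatty acid omega-hydroxylase and PPAR alpha target that is no member, was 5600 CPM against 2014 to 4424 CPM in WT livers. Of the remaining 6, mouse 588 had 9 members below the WT range and none had more than 1 above it. For these livers, too, the share of all genes outside the WT range was not computed, so the counts may not be particular to the members.

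**Figure D3:**
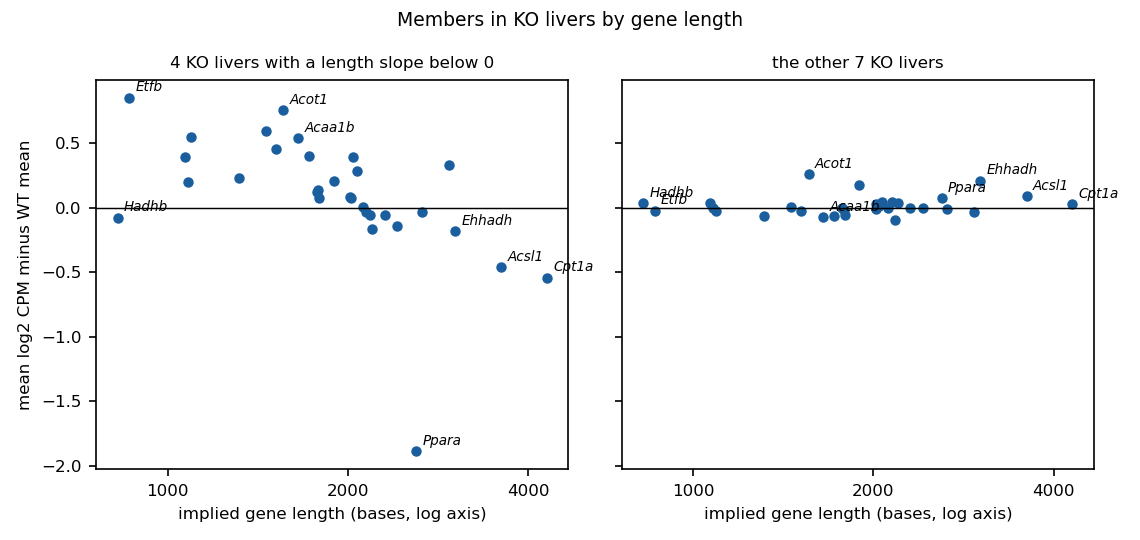
Mean log2 CPM minus the WT mean for each of the 31 members against the gene's implied length in bases (log axis), in the 4 KO livers whose length slope was below 0 (left) and in the other 7 KO livers (right). On the left short genes such as Etfb lie above 0 and Cpt1a, Acsl1 and Ppara below; on the right all points lie within 0.26 of 0.

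The spread of the members between WT livers was below that over all genes tested, a background not matched to the members in level. The median SD of the members was 0.10 log2 CPM, against 0.175 over all genes tested. It ran from 0.04 for Acadvl (mean 9.075 log2 CPM) to 0.45 for Acot1 (mean 5.56 log2 CPM). Between KO livers the median SD was 0.23 (all genes 0.35), highest for Ppara at 1.15, and without the 4 livers it was 0.12. In muscle the order was the other way round: the members' median SD was 0.23 in WT and 0.205 in the libraries labelled KO, against 0.16 and 0.17 over all genes.

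In muscle the genotype comparison called none of the 31 members (background 0.00754% of 13266 genes, namely 1 gene). None had an unadjusted p below 0.05 (8.64% of all genes did), and DESeq2 had 1 at that level. No member had separate WT and labelled KO ranges, and neither did any other gene tested (background 0%). Of the log2 fold changes 24 were below 0 (46.3% of all genes were), with a median of −0.05. The smallest p-values were those of Crat, Vnn1 and Acads. Crat was 249 to 331 RPKM in WT and 240 to 300 RPKM in those labelled KO, with a log2 fold change of −0.06 (SE 0.03, adjusted p = 0.616). Acads was 33.7 to 69.0 RPKM and 35.2 to 66.5 RPKM, a log2 fold change of −0.18 (SE 0.10, adjusted p = 0.635). Vnn1 was 0.231 to 1.16 RPKM and 0.452 to 2.44 RPKM, a log2 fold change of 0.55 (SE 0.30, adjusted p = 0.623).

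The members with positive values in muscle were led by the liver-type genes Acaa1b (0.64, 95% interval −0.13 to 1.42), Vnn1 and Cpt1a (0.15, −0.02 to 0.32). All 3 had their 2 highest muscle values of the labelled KO group in mice 561 and 611. Acaa1b was 3.16 and 3.52 RPKM there and 0.288 to 1.03 RPKM in the other 9, Vnn1 was 2.44 and 2.36 RPKM against 0.452 to 1.15 RPKM, and Cpt1a was 6.62 and 6.21 RPKM against 3.36 to 4.94 RPKM. The same 2 libraries had the highest sums of the 6 hepatocyte markers (57.0 and 34.4 CPM, the other 9 labelled KO 4.36 to 12.7 CPM and WT 4.35 to 13.6 CPM) and of the 6 adipocyte markers (725 and 522 CPM, the other 9 labelled KO 102 to 210 CPM and WT 73.0 to 290 CPM), with no marker of either list at 0 in all muscles. The part of such cells in these values was not tested. Leaving out both libraries must lower the 3 fold changes, because these libraries hold the highest levels, so it cannot show that part. Without both libraries, a choice made after seeing the data, the log2 fold changes were −0.19 for Acaa1b, 0.03 for Vnn1 and 0.03 for Cpt1a. The count below 0 was then 28, with 4 members at an unadjusted p below 0.05 (12.9% of members, 10.2% of all genes) and 0 called.

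Single mice stood apart across most members in muscle. WT mouse 624 had the highest level of its group in 28 of the 31 members, and mouse 611, labelled KO, in 26. Across all 31 genes the median member stood 0.50 log2 CPM above the group median in mouse 624 and 0.51 in mouse 611. WT mouse 528 was lowest of its group in 23 members (median −0.30), and mouse 602 was lowest of those labelled KO in 11. The share of all genes for which these mice were highest or lowest was not computed. A difference of the whole library therefore cannot be told apart from one of the members.

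These mice also differed in the myosins of fibres other than the fast glycolytic type IIb. Myh1, the heavy chain of type IIx fibres, was 7585 CPM in mouse 624 and 7480 CPM in mouse 611, and 1518 to 4866 CPM in the other 20 muscles. Myh2, the heavy chain of type IIa fibres, was 1115 and 1241 CPM in the same mice, 1458 CPM in WT mouse 531 and 31.6 CPM, the lowest of all, in mouse 528. Mouse 531 was the only one with a clear level of the slow heavy chain Myh7, 76.2 CPM against at most 2.18 CPM elsewhere, and was among the top 3 of its group in 24 members. The sums of the slow-fibre markers were 337 CPM there and 45.2 to 65.7 CPM in the other muscles. Of the 5 slow-fibre markers tested, with WT mouse 531 included, 4 had an unadjusted p below 0.05 for genotype (8.64% of all genes did). The median of the 5 was −1.63, and none was called. Mouse 611 had the highest erythroid (190 CPM, next 93.9 CPM), endothelial (292 CPM, next 263 CPM), macrophage (23.7 CPM, next 20.2 CPM) and fibroblast sums (826 CPM, next 745 CPM) of the muscles too, and the part of these cells and fibres in the members' levels was not tested.

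The direction of the muscle values moved with these mice. Without mouse 624 the median log2 fold change was 0.00 and 15 values were below 0, and without mouse 611 it was −0.10 with 26 below 0. Without mice 531, 611 and 624 together, chosen after seeing the data, it was −0.02 with 20 below 0, and 0 members were called in each case. The median of all pairwise Pearson correlations among the members, a description over 11 muscles with the same libraries behind every gene, was 0.80 in WT and 0.67 without mouse 624. In the muscles labelled KO it was 0.70, and 0.41 without mouse 611. In liver it was 0.28 in WT mice, 0.47 in KO mice and 0.40 in the 7 KO livers without a low length slope.

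**Figure D4:**
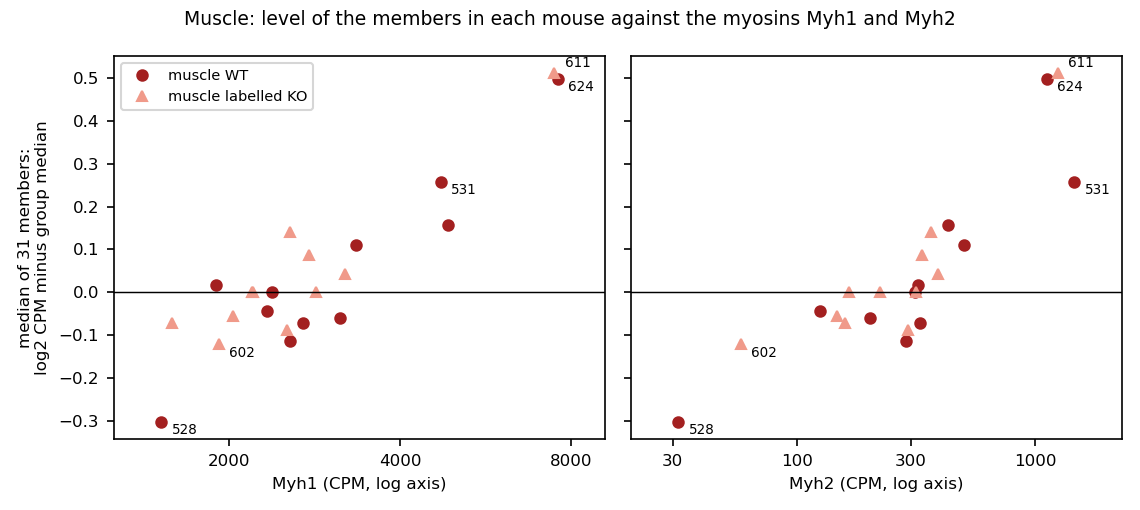
Median over the 31 members of log2 CPM minus the group median, for each of the 22 muscles, against Myh1 (left) and Myh2 (right) in CPM on log axes; circles are WT, triangles are labelled KO, and mice named in the text are numbered. Mice 624 and 611 lie at the top right and mouse 528 at the bottom left in both panels.

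The interaction fit asked whether the genotype difference was the same in both tissues. None of the 31 members was called (background 0.00678% of 14739 genes, namely 1 gene, Slc16a13). With an unadjusted p below 0.05 there were 8 members, or 25.8%, against 16.2% of all genes tested. With the mouse as a block this fell to 3 members (9.68%, background 15.3%), and without the 4 livers of low length slope to 0 (background 4.8%). The largest difference, that of Acot1, was 0.70 (SE 0.30, adjusted p = 0.281), KO over WT in liver minus muscle, and the lowest, that of Vnn1, was −0.61 (SE 0.30, adjusted p = 0.308).

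Members were also set against a well known PPAR alpha target in each tissue, Cyp4a14 in liver and Pdk4, the kinase that inhibits pyruvate dehydrogenase, in muscle. Across mice 24 relations were computed, 6 for each tissue and genotype, on log2 CPM with two-sided permutation tests adjusted over the 24. In WT livers Acot1 rose with Cyp4a14 (Pearson's r = 0.86, permutation p = 0.00074, adjusted p = 0.013; Spearman's rho = 0.89, permutation p = 0.0006, adjusted p = 0.014). Ehhadh did so too (r = 0.84, permutation p = 0.0011, adjusted p = 0.013; rho = 0.79, permutation p = 0.0056, adjusted p = 0.034). In the same livers r was 0.26 for Acaa1b, 0.21 for Vnn1, 0.01 for Cpt1a and −0.46 for Pex11a, with adjusted permutation p-values of 0.26 to 0.97. The 6 targets thus ranged from −0.46 to 0.86 in how they followed Cyp4a14 in WT livers.

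In KO livers Ehhadh again passed (r = 0.91, adjusted permutation p = 0.018; rho = 0.77, adjusted permutation p = 0.036), whereas Acot1 passed only by rank (r = 0.57, adjusted permutation p = 0.23; rho = 0.82, adjusted permutation p = 0.034). Because the 4 livers of low length slope stood apart, the relations were recomputed in the other 7. There Acot1 had r = 0.87 (exact permutation p = 0.0038, adjusted p = 0.03) and rho = 0.96 (adjusted exact permutation p = 0.034), and Ehhadh had r = 0.84 (adjusted exact permutation p = 0.19). Acaa1b had r = 0.9 (adjusted exact permutation p = 0.096) and rho = 0.89 (adjusted exact permutation p = 0.058) in these livers. For Cpt1a, Pex11a and Vnn1 r was 0.71, 0.11 and −0.3. Without the 2 livers farthest from the median of Cyp4a14, r in WT was 0.79 for Acot1 and 0.81 for Ehhadh (adjusted exact permutation p = 0.13 for both), so neither passed any longer, and in KO it was 0.69 and 0.48. The relation of Ehhadh in KO livers rested on those livers, mice 598 and 532. In WT livers without the 2 farthest, Cpt1a had r = 0.71 (adjusted exact permutation p = 0.23) and rho = 0.83 (adjusted exact permutation p = 0.088). For Acaa1b, Vnn1 and Pex11a r was 0.13, 0.03 and −0.35 there.

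In muscle 1 of 12 relations passed. Acot2 rose with Pdk4 in WT mice (r = 0.71, permutation p = 0.007, adjusted p = 0.042; rho = 0.80, permutation p = 0.0045, adjusted p = 0.034), and without the 2 farthest mice r was 0.54 (adjusted exact permutation p = 0.39). In the muscles labelled KO the r of Acot2 was 0.64 (adjusted permutation p = 0.096). For Acot1, Cpt1b, Slc25a20 and Etfdh r lay between 0.37 and 0.54 in both groups, and for Cpt1a at −0.02 and −0.24, with adjusted permutation p-values of 0.26 to 0.97. Pdk4 itself was 563 to 1467 RPKM in WT muscles and 3.02 to 18.2 RPKM in WT livers, while Cyp4a14 was 855 to 1707 RPKM in WT livers and at most 0.189 RPKM in any muscle.

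**Figure D5:**
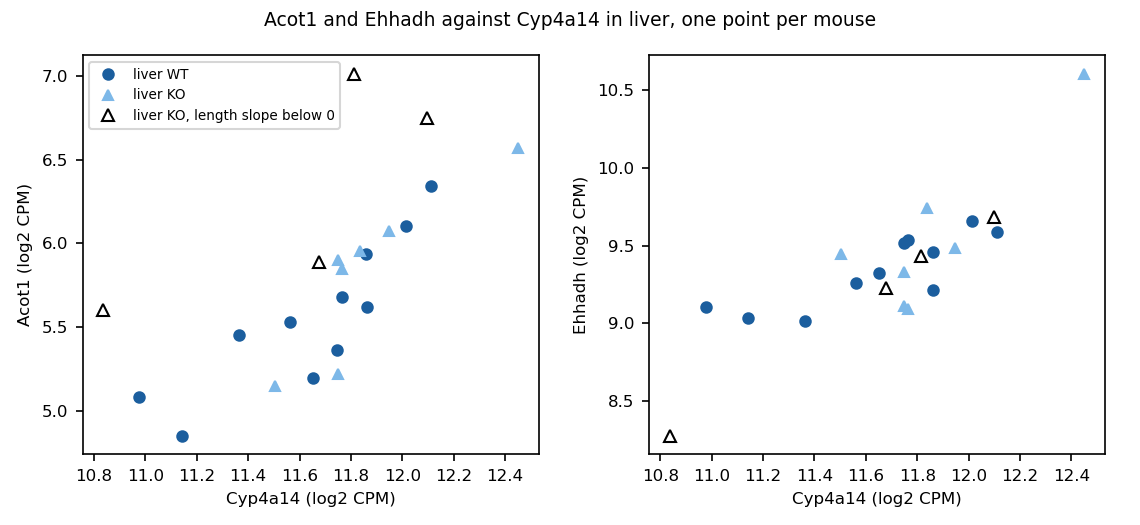
Acot1 (left) and Ehhadh (right) against Cyp4a14, all in log2 CPM, one point per liver; circles are WT, filled triangles KO, and open triangles the 4 KO livers of low length slope. Both genes climb with Cyp4a14 in WT livers, and in the right panel the end points are mice 532 and 598.

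Other genes of the pathway were read from lists drawn up beside the members. Of 36 further beta-oxidation genes, 35 of them tested, 28 were higher in liver and 6 higher in muscle in WT mice. Over all genes tested 45.5% were called in each direction. Acsm1, a medium-chain acyl-CoA synthetase, was 141 to 175 RPKM in WT livers and at most 0.0230 RPKM in WT muscles, and Acox2, the branched-chain acyl-CoA oxidase of peroxisomes, 144 to 173 RPKM and at most 0.262 RPKM. Acsl6, a long-chain synthetase, and Acacb, which makes the malonyl-CoA that inhibits Cpt1, leaned the other way, with 9.94 to 14.2 and 59.2 to 74.5 RPKM in WT muscles and at most 0.0950 and 8.23 RPKM in WT livers. Of 31 further PPAR alpha targets, 23 were higher in liver and 7 in muscle, against the same background. Cyp4a10, a relative of Cyp4a14, was 876 to 1569 RPKM in WT livers and at most 0.0770 RPKM in WT muscles. Fabp3, the heart and muscle fatty acid binding protein, and Ucp3, a mitochondrial carrier, were at most 0.207 and 0.276 RPKM in WT livers and 121 to 520 and 132 to 198 RPKM in WT muscles.

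Of 17 regulators, 3 were higher in liver and 13 in muscle in WT mice (background 45.5% in each direction). Their median was −0.66, the opposite lean to the enzymes. Sirt3, a mitochondrial deacetylase, and Pparg, the adipogenic relative of Ppara, were higher in liver by 2.97 and 1.82, and Rxrg, a partner receptor of the PPARs, and Prkaa2, a catalytic subunit of AMPK, lower by 3.04 and 2.19. No gene of these 3 lists was called for genotype in either tissue. Among the smallest p-values of the lists in liver were those of the acyl-CoA synthetase Acsl4 (−0.33, adjusted p = 0.382), Acad9 (−0.14, adjusted p = 0.382), the lipoprotein lipase inhibitor Angptl4 (0.38, adjusted p = 0.382), Creb3l3 (0.22, adjusted p = 0.382) and Pparg (−0.25, adjusted p = 0.386). Among those in muscle were Acad9 (−0.06, adjusted p = 0.608), the malonyl-CoA decarboxylase Mlycd (−0.07, adjusted p = 0.633), Fitm1 (−0.15, adjusted p = 0.533), Ucp2 (0.23, adjusted p = 0.654) and Rxrb (−0.10, adjusted p = 0.509).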

How the data were processed

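Poly(A) RNA of liver and skeletal muscle from 22 mice was sequenced as 85-base single-end reads from strand-specific libraries. The authors deposited a table of raw read counts per gene and a table of RPKM values per gene. Each has 1 column for each of 44 libraries, labelled with a single animal. The study's methods state that 11 libraries were combined for multiplexing, and which libraries shared a pool is not given in the sources used here. Aligner, counting program, annotation and genome build are not given in the sources used here; the submitters' processing notes name limma without a version. Both tables hold 38202 genes, and 36340 identifiers were matched to a symbol. Total counts were 20150712 to 35218243 per library. No 2 libraries held identical values, and the smallest chi-square per gene between replicates was 4.47.

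Groups were taken from the sample labels. Counts were fitted with edgeR 4.0.16 (filterByExpr, TMM, quasi-likelihood F-test, Benjamini-Hochberg adjustment over all genes tested, threshold 0.05) in R 4.3.3, within each tissue for genotype, within each genotype for tissue, and in all 44 libraries for the interaction. The fit was tested on simulated data. Implied gene length was read from counts and RPKM. The length slope of a library is the regression slope, on log2 gene length, of its log2 CPM after subtracting the tissue's mean. Relations were tested with scipy 1.17.1 (100000 resamples, exact below 10 mice). Levels are compared between genes only in RPKM. Alternatives used limma 3.58.1, DESeq2 1.42.0, other scaling and filters, RPKM, a gene length correction, libraries left out and a mouse block.

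Liver and muscle of a mouse were paired by the animal number in the labels; the mean correlation of their deviations from the group means was 0.104, against −0.01 between different mice. The members and lists were chosen with earlier results of these data known. All members are named, with full statistics for those called for genotype, or else the 3 smallest p-values per tissue, and for the 5 with the largest tissue differences in each direction; of the other lists, called genes or else the 2 smallest p-values per tissue, and the 2 most in favour of each tissue. One gene that this rule names is not reported here. Start regions came from a RefSeq table of GRCm38.p6.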

Additional observations from a re-analysis of the deposited data

Results flagged for a closer look

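The genotype difference of Slc16a13 itself differed between the tissues. The interaction term, KO over WT in liver minus muscle, was −6.08 (SE 0.38, adjusted p = 5.92e-16, edgeR's quasi-likelihood test). In liver the log2 fold change was −5.45 (SE 0.30, adjusted p = 2.81e-11), and in the muscle libraries labelled KO it was 0.64 (SE 0.22, adjusted p = 0.495).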

How the results depend on the processing

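The tissue calls of the members kept their direction in every alternative run, with 29 or 30 members called, although Hadha lost its call with gene length removed, and no member was called for genotype or for the interaction in any of them. Over all genes, the liver genotype comparison called 3 genes, 6 with DESeq2 and 1 with at least 10 counts in every library. The muscle comparison called 1 gene and 0 with limma-voom, no filter, at least 10 counts in every library (30 of 31 members tested), RPKM with either pseudocount (0.1 or 1), without mice 531, 611 and 624, and without mice 561 and 611, the last 2 chosen after seeing the data; 1065, 3016, 1078, 968, 970, 1041 and 1363 genes then had an unadjusted p below 0.05 by the same tool, and DESeq2 called 1. The interaction called 1 gene, 3 with library size alone, 43 with DESeq2, 0 with at least 10 counts (1927 at an unadjusted p below 0.05), and 2 each with gene length removed, RPKM with either pseudocount, without the 4 livers of low length slope, and without mice 531, 611 and 624; the cause was not tested. Leaving out 1 mouse at a time gave 3 to 3 genes in liver, 1 to 1 in muscle and 0 to 0 members. With the mouse as a block the interaction called 1 gene and 0 members, tissue in WT 12674 genes and 29 members, and tissue in KO 12107 genes and 29 members. None of the relations passed without the 2 farthest mice (0 of 24). With gene length removed Acad9 changed direction between tissues, to −0.235 in WT and −0.343 in KO mice, and the median of all genes shifted to −0.18 and −0.134. Values that were not called changed sign in some alternative for 23 members in liver, 13 in muscle and 10 in the interaction.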
